A study of Mus musculus with 9 samples.

Results

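The cytosolic ribosomal protein genes and the measured copies of Rps18 were examined in RNA sequencing of the mouse hypothalamus. Members were chosen by gene symbol, as Rpl or Rps followed by a number, Rplp0, Rplp1, Rplp2 and Rpsa, with the copies Gm10260 and Gm11361 added. There were 80 members among 14351 genes, of which 78 came by symbol, 47 encoding proteins of the large subunit and 31 of the small subunit. The reference annotation holds 82 protein-coding genes that match the symbols, and the other 4 (Rpl10l, Rpl39l, Rpl3l and Rps27rt) had no row among those analysed here.

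The study asked how hypothalamic gene expression differs without Clic1, a chloride intracellular channel protein. All libraries are labelled as hypothalamus of male mice of strain C57b/6J, whereas the methods of the study describe the Clic1 line as being on a CD-1 background. The KO group (5 libraries, replicates 2, 4, 6, 8 and 10) carries a whole-body Clic1 deletion, and the WT group (4 libraries, replicates 1, 3, 9 and 11) is made of wild-type littermates. Both groups ate normal chow, and the age of these mice is not given in the sources used here. The labels number the libraries as separate samples of each group and describe no pooling, so p-values measure the spread between these samples. Replicate 10 has conflicting labels. Its title and treatment call it WT, its description carries the K prefix of the KO libraries, and it was placed with the KO group, with results also given without it.

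A ribosome is built from a small subunit, which reads the mRNA, and a large subunit, which joins the amino acids. Each subunit consists of ribosomal RNA and many ribosomal proteins, which cells make in near-equal numbers. The mRNAs of these proteins are abundant, short and started by a pyrimidine tract, the 5′ terminal oligopyrimidine motif, through which mTOR signalling sets their translation. Mammalian genomes also hold many processed copies of these genes, which complicates the assignment of reads.

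Values are the authors' normalized counts scaled to library size (CPM). Estimated totals ranged from 5.45 to 20.8 M reads, the largest being KO replicate 10. Clic1, at chr17:35049966-35058749 of GRCm38, measured 1.93, 1.32, 0.733, 1.25 and 1.43 CPM in KO replicates 2, 4, 6, 8 and 10 and 5.52, 4.66, 5.3 and 3.58 CPM in WT replicates 1, 3, 9 and 11, so replicate 10 was within the range of the other KO libraries and below every WT library. The log2 difference of Clic1 was -1.80 (SE 0.27, limma adjusted p = 0.0153). This call was lost without WT replicate 1, 3 or 9 (limma adjusted p of 0.0893, 0.0826 and 0.0702) and with replicate 10 as WT (0.501), although the direction was kept, and which part of the gene the KO reads come from was not tested. All 14 hypothalamic markers were measured, summing to 774 to 941 CPM over the KO libraries and 708 to 759 CPM over the WT libraries. These sums did not overlap between the groups, and 1 of the 14 passed the threshold, beside 0.286% of all genes. Of 8 adipose markers 1 was measured, at 3.73 to 5.7 CPM over all libraries, although 1 protocol label names adipose tissue. KO replicate 10 stood apart over all genes, with a median Spearman correlation of 0.9743 to the other libraries against at least 0.99 for each of the rest. By this correlation WT replicate 9 did not stand apart (0.9906). It stood apart over the ribosomal protein genes, as described after the comparison of the groups.

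Rps18 encodes a small-subunit protein at the head of that subunit. The gene lies at chr17:33951999-33956001 on the minus strand, 1.09 Mb from Clic1. Gm10260 (chr13:97760072-97760632, minus strand) and Gm11361 (chr13:28257528-28258134, plus strand) are single-exon genes annotated as protein-coding, each with a coding sequence as long as that of Rps18. Over the 456 coding bases, Gm10260 differed from Rps18 by 4 substitutions (99.1% identity) and Gm11361 by 3 (99.3%). Counted from 1 at the A of the start codon, with the Rps18 base first, they were T186C, A337C, G371A and G431A in Gm10260 and T11A, A171C and A337C in Gm11361, so A337C is shared by both copies. Coding bases 132 to 371 are shown 5′ to 3′ because they hold 5 of the 7 differences, from GENCODE transcripts on GRCm38, with capitals marking each position at which the sequences differ. The copies' stretches lie at chr13:97760218-97760457 and chr13:28257767-28258006.
Rps18: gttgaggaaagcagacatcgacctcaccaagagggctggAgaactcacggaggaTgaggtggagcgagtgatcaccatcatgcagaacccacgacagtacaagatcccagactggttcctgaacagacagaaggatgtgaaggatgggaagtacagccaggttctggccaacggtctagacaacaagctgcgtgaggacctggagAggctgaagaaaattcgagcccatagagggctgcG
Gm10260: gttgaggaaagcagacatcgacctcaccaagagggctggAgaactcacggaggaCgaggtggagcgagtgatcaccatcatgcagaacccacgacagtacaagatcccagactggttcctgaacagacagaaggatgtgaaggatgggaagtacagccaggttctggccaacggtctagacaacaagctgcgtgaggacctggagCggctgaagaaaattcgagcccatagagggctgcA
Gm11361: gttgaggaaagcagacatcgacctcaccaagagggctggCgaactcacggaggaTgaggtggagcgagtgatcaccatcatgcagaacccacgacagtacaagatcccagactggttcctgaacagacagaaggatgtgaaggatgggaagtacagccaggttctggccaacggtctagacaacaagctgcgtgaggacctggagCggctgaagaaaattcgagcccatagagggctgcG
The longest run without a difference from Rps18 was 185 bases in Gm10260 and 165 bases in Gm11361. Of all windows of 100 bases in the coding sequence, 38.4% were identical between Rps18 and Gm10260 and 40.9% between Rps18 and Gm11361, so reads of such windows cannot be placed by sequence alone. The annotation holds 13 copies of Rps18 with at least 90% identity, and the remaining 11 are processed pseudogenes without a row in the table.

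Rps18 was higher and both copies were lower in KO than in WT. Rps18 measured 43.3, 42.5, 40.7, 38.6 and 63 CPM in KO replicates 2, 4, 6, 8 and 10 and 10.6, 8.11, 15.8 and 9.5 CPM in WT replicates 1, 3, 9 and 11. The groups did not overlap, and the highest libraries of the groups were KO replicate 10 and WT replicate 9. Rps18 rose by 2.06 on the log2 scale (SE 0.19, limma adjusted p = 0.000353), the KO mean being 45.6 ± 9.88 CPM (SD, n = 5) and the WT mean 11 ± 3.36 CPM (SD, n = 4). Without KO replicate 10 the log2 difference was 1.94 (SE 0.15, limma adjusted p = 6.81e-06). In this bulk tissue, a difference in the number of cells of a type and one in RNA per cell cannot be told apart. Some reads of Rps18 cannot be told from those of its copies by sequence, so the sum of the 3 genes is given below.

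Gm10260 measured 0.0631, 0.194, 0, 0 and 0.119 CPM in KO replicates 2, 4, 6, 8 and 10, against 27, 20.5, 34.1 and 29.7 CPM in WT replicates 1, 3, 9 and 11. Its estimated reads were 0 to 2.41 per KO library and 198 to 341 per WT library, so all KO libraries were at or near zero. Gm11361 measured 0.768, 0, 0, 0 and 0.0529 CPM in the KO libraries, which is 0 to 5.96 estimated reads, and 11.2, 9.96, 13.2 and 10.7 CPM in the WT libraries, which is 77.6 to 132 estimated reads. The groups of both copies did not overlap, and KO replicate 2 held most of what little Gm11361 signal the KO libraries had. The fitted log2 differences were -7.42 (limma adjusted p = 1.33e-06) for Gm10260 and -6.07 (limma adjusted p = 0.000505) for Gm11361. These sizes depend on the pseudocount, since with 1 in place of 0.1 they were -4.72 and -3.43. With replicate 10 counted as WT, none of the 3 genes passed in limma, at log2 differences of 1.43 for Rps18, -6.14 for Gm10260 and -4.80 for Gm11361.

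The summed level of the 3 genes did not pass the test. It was 44.1, 42.7, 40.7, 38.6 and 63.2 CPM in KO replicates 2, 4, 6, 8 and 10 and 48.8, 38.6, 63.1 and 49.9 CPM in WT replicates 1, 3, 9 and 11. With KO replicate 10 included, the groups overlapped over nearly their whole ranges, and the highest libraries were again KO replicate 10 and WT replicate 9. The other KO libraries spanned 38.6 to 44.1 CPM, and WT replicates 1, 9 and 11 were above all of them. The log2 difference of the sum was -0.13 (SE 0.16, limma adjusted p = 0.9, two-sided exact permutation p = 0.524), with means of 45.9 ± 9.89 CPM (n = 5) and 50.1 ± 10.1 CPM (n = 4). Without KO replicate 10 it was -0.25 (SE 0.11, limma unadjusted p = 0.0414 and adjusted p = 0.448, exact permutation p = 0.171). Without WT replicate 9 as well it was -0.13 (SE 0.09, limma unadjusted p = 0.162 and adjusted p = 0.652). Rps18 made up 98.1% to 100% of the sum in KO libraries and 19% to 25.1% in WT libraries, so the division of the reads among the 3 genes differed between the groups while the sum was not shown to differ. How much of this division the authors' allocation of shared reads sets was not tested.

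**Figure D1:**
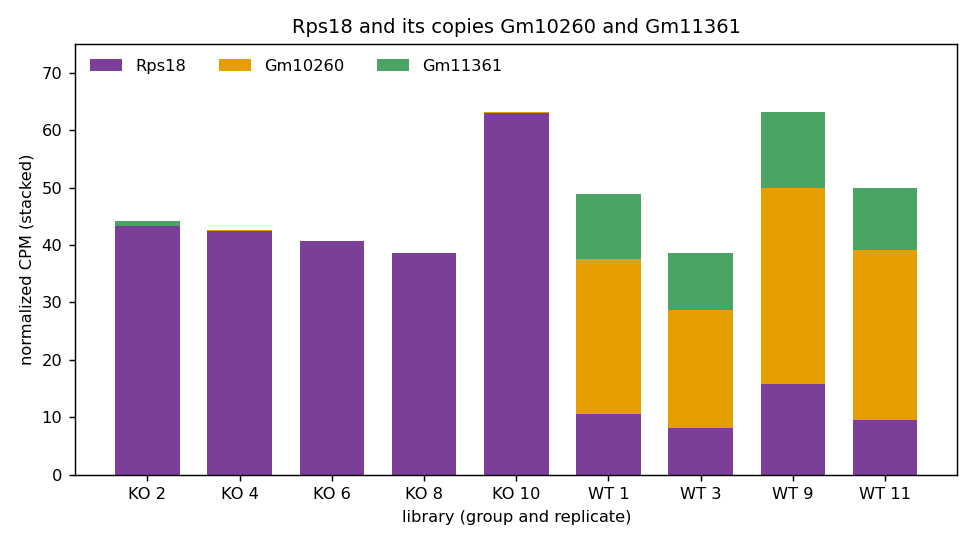
Stacked bars of normalized CPM of Rps18, Gm10260 and Gm11361 in each library, with KO and WT replicates on the x axis. Rps18 makes up 98.1% to 100% of the bar in KO and 19% to 25.1% in WT, and the total height overlaps between the groups.

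Near-identical copies of 6 other members were measured, and none passed the threshold. They were Rpl10-ps3, BC004004 (a copy of Rpl21), Gm2000 (of Rpl35), Gm6525 (of Rpl36a), Rpl9-ps6 and Wdr89 (which holds a match to Rplp2). Their log2 differences ran from -0.44 for Rpl10-ps3 to 0.08 for Gm2000 and Rpl9-ps6. Rpl10-ps3 measured 11.2 to 23.1 CPM over the KO libraries and 18 to 25.6 CPM over the WT libraries, so its groups overlapped. Gm2000 measured 17.4 to 22.8 CPM over the KO libraries and 14.3 to 28 CPM over the WT libraries, which overlap as well.

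Among the 78 genes chosen by symbol, Rps18 alone passed the threshold in the fit of all libraries, that is 1.28% of the members beside 0.286% of all genes (0.139% higher and 0.146% lower in KO). With Gm10260 and Gm11361, 3 of the 80 members passed. In 3 of the 78, Rps18, Rps24 and Rps28, every KO library was above every WT library, which is 3.85% of the members beside 1.67% of all genes in that direction and 3.41% in either direction. The same 3 did so without KO replicate 10, beside 2.86% of all genes in that direction and 6.06% in either, and 10 of the 78 (12.8%) did so without KO replicate 10 and WT replicate 9, beside 4.86% and 10.1%. None of the 78 had groups that did not overlap with KO lower in any of these sets. Gm10260 and Gm11361 had such groups with all libraries and without KO replicate 10. At an unadjusted p under 0.05 there were 4 members, Rps18, Rps24 and Rps28 higher and Rpl27 lower in KO, or 5.13% beside 6.5% of all genes (3.44% higher and 3.07% lower). The median log2 difference of the 78 was 0.06 with all libraries, -0.07 without KO replicate 10 and 0.05 without KO replicate 10 and WT replicate 9, beside a median of 0.00 over all genes in the fit of all libraries. It was also -0.02 without WT replicate 3, 0.20 without WT replicate 9 and -0.01 with array weights, so its sign changed with the libraries included and their weights. Without KO replicate 10, the genes chosen by symbol other than Rps18, Rps24 and Rps28 had log2 differences from -0.27 (Rps27l) to 0.19 (Rps2).

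Rps24 encodes a small-subunit protein needed to process the precursor of the small-subunit RNA, and the human gene is mutated in some patients with Diamond-Blackfan anaemia. It lies at chr14:24487125-24496959. Rps24 measured 180, 160, 171, 157 and 369 CPM in KO replicates 2, 4, 6, 8 and 10 and 93.7, 99.9, 126 and 98.2 CPM in WT replicates 1, 3, 9 and 11. All KO libraries were above all WT libraries, with KO replicate 10 far above the rest. With all libraries the log2 difference was 0.91 (SE 0.22) and did not pass after adjustment (limma adjusted p = 0.217, two-sided exact permutation p = 0.0159, the smallest that this design allows). Without KO replicate 10 Rps24 rose by 0.68 on the log2 scale (SE 0.08, limma adjusted p = 0.000346), in a fit in which 2 of the 78 members passed, both higher in KO, beside 0.606% of all genes (0.341% higher and 0.265% lower). Without WT replicate 9 as well it rose by 0.78 (limma adjusted p = 6.81e-07). The annotation lists 12 copies of Rps24, none with a row in the table, so reads shared with them could not be followed as for Rps18. Of the 4 other measured genes within 1 Mb of Rps24, 0 passed the limma threshold in either fit and 0 had groups that did not overlap.

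Rps28, a small-subunit protein close to the mRNA exit, showed a smaller difference in the same direction. It lies at chr17:33819027-33824562, 1.23 Mb from Clic1 and near Rps18. Rps28 measured 52.2, 46.1, 47.2, 47.7 and 67.3 CPM in KO replicates 2, 4, 6, 8 and 10 and 35.7, 37.7, 43.4 and 39.8 CPM in WT replicates 1, 3, 9 and 11. The groups did not overlap, although WT replicate 9 came within a few CPM of the lowest KO library. The log2 difference was 0.40 (SE 0.11, limma adjusted p = 0.412) with all libraries and 0.30 (limma adjusted p = 0.0963) without KO replicate 10. It passed without KO replicate 10 and WT replicate 9 (0.36, limma adjusted p = 0.0248, in a fit in which 3 of the 78 members passed, all higher, beside 0.955% of all genes, 0.592% higher and 0.362% lower) and with array weights (0.36, limma adjusted p = 0.0253, beside 0.941% of all genes). Rps28 was named after its values were seen. Within 1 Mb of Rps18, 68 genes were measured, of which 4 passed with all libraries (5.88%, beside 0.286% of all genes) and 13 had groups that did not overlap (19.1%, beside 3.41%). Within 1 Mb of Rps28 the counts were 6 (9.38%) and 12 (18.8%) of 64, in an interval that overlaps the first and holds Rps18. The other members on chromosome 17, farther from Clic1, had log2 differences of 0.06 for Rpl10a (6.72 Mb away), -0.02 for Rps10 (7.41 Mb), 0.19 for Rps2 (10.3 Mb) and 0.18 for Rpl36 (21.6 Mb). The role of linkage to the deleted gene was not tested.

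**Figure D2:**
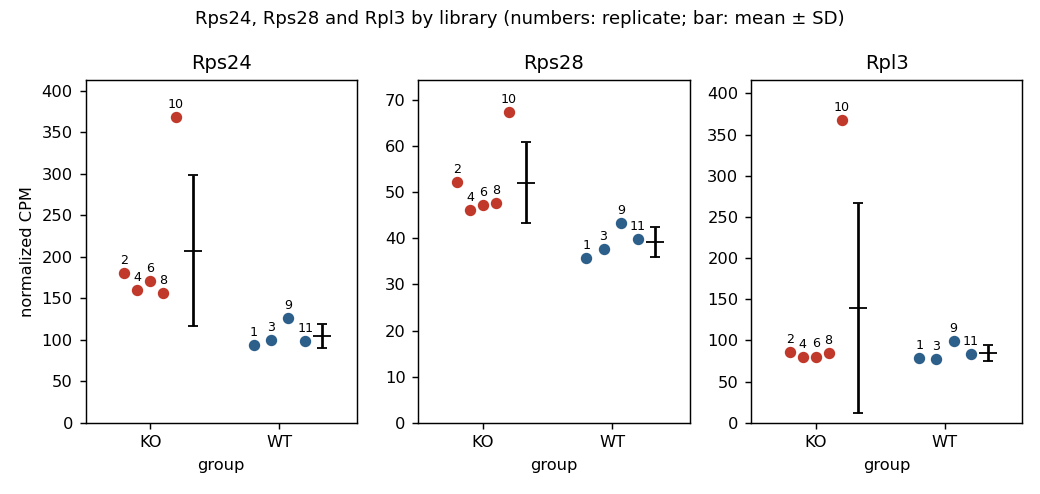
Normalized CPM of Rps24, Rps28 and Rpl3 in each library, numbered by replicate, with the mean and SD of each group as bars. For Rps24 (157 to 369 CPM in KO, 93.7 to 126 in WT) and Rps28 all KO points lie above all WT points, whereas for Rpl3 only KO replicate 10, at 368 CPM, stands apart.

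**Figure D3:**
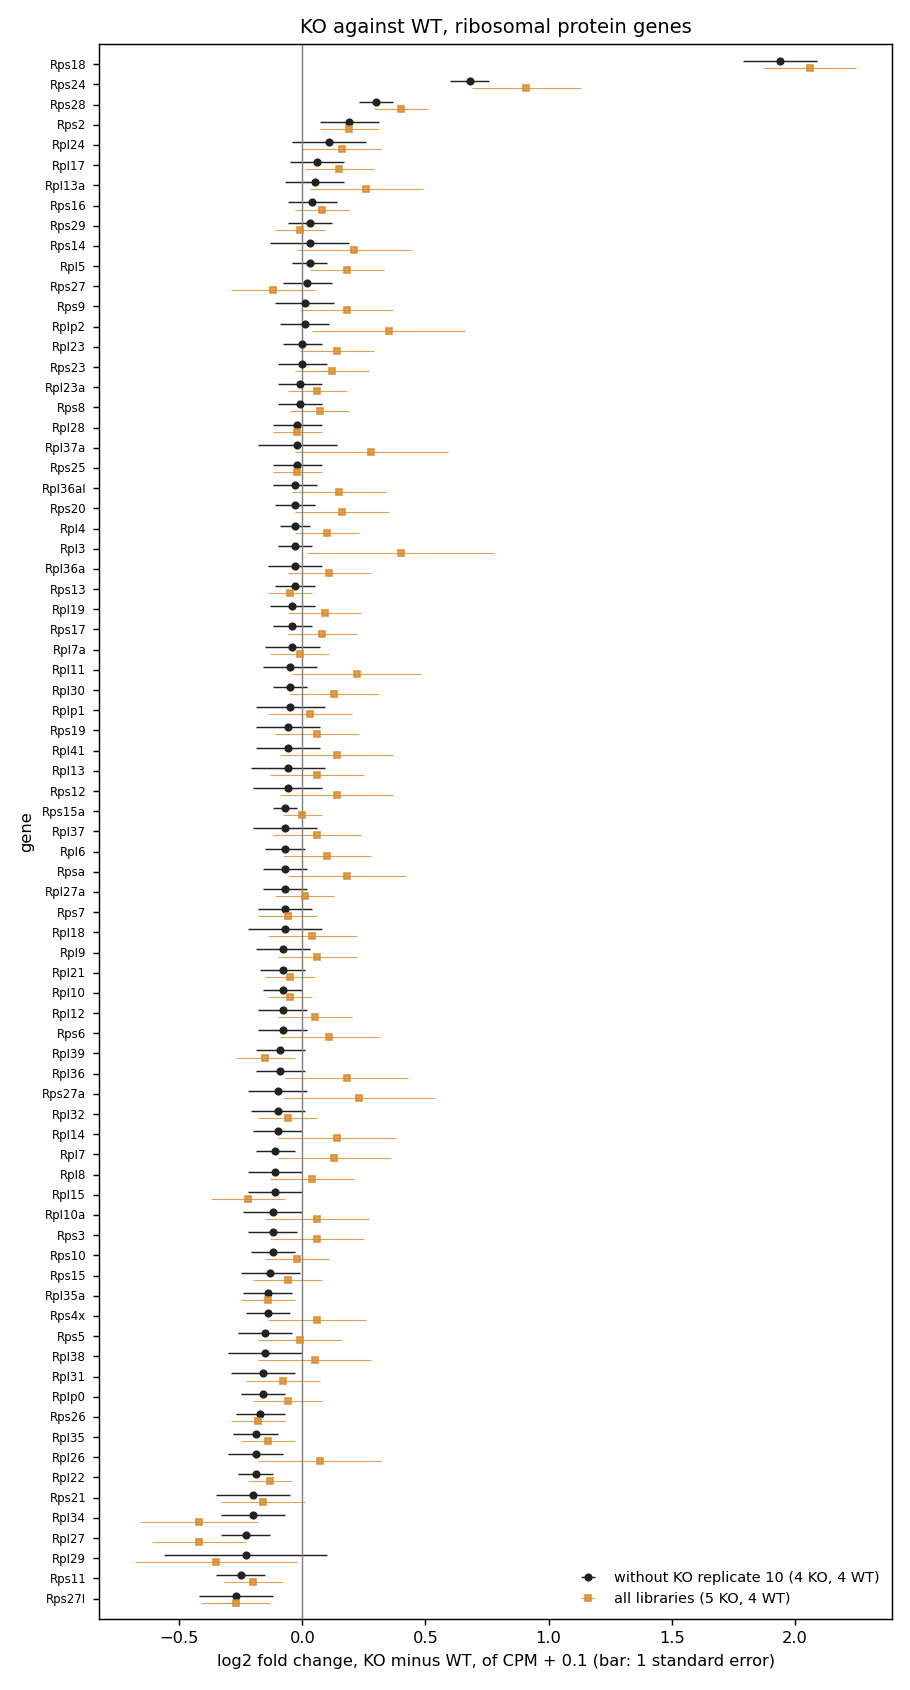
Log2 difference between KO and WT with 1 SE for 77 of the 78 genes chosen by symbol, with all libraries (squares) and without KO replicate 10 (circles). Rps18 at 1.94 and Rps24 at 0.68 stand to the right of the other genes without KO replicate 10, and Rpl3 moves from 0.40 to -0.03.

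Levels per kb of transcript differed widely among the members. By mean WT CPM per kb the most abundant included Rps15 (302), Rps21 (270), Rpl23a (263) and Rplp1 (259), which are structural proteins of either subunit and, for Rplp1, of the stalk that recruits elongation factors. Rps27l (18.3), Rpl22 (17.7), Rps20 (15.3) and Rpl29 (3.46) were the lowest of the genes chosen by symbol, with Gm11361 at 18.5. The Rps20 value rests on a transcript model of 3706 bases and Rpl29 has 59 annotated copies, so both are uncertain. The Rpl22 value is uncertain as well, since it rests on a median length of 2048 bases and another coding transcript has 474. None of these genes passed the threshold between KO and WT other than Gm11361. Rpl29 measured 1.35, 2.22, 1.6, 3.1 and 1.28 CPM in KO and 3.07, 1.28, 3.02 and 2.46 CPM in WT, and its groups overlapped. The paralogs Rps27l and Rpl36al, which can replace Rps27 and Rpl36a in some cells, had log2 differences of -0.27 (limma adjusted p = 0.798) and 0.15 (0.897).

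Library by library, the ribosomal protein genes differed more than the groups did. Summed over the 78 genes chosen by symbol, they took 8150, 7967, 8118, 7971 and 13237 CPM in KO replicates 2, 4, 6, 8 and 10, and 8017, 7206, 10870 and 7773 CPM in WT replicates 1, 3, 9 and 11. KO replicate 10 was the highest library and WT replicate 9 the next, with the others within a narrow range. Without these libraries the KO sum averaged 8052 ± 96 CPM (SD, n = 4) and the WT sum 7665 ± 416 CPM (SD, n = 3). The deviation of a gene in a library was taken as the log2 ratio of its CPM to the mean of the other libraries of the group. The median deviation of the 78 genes was 0.59 in KO replicate 10 and 0.49 in WT replicate 9. It lay between -0.03 and 0.01 in the other KO libraries, which were compared without replicate 10, and at -0.10, -0.31 and -0.16 in WT replicates 1, 3 and 11, whose references include replicate 9. Medians over all genes were -0.01 to 0.00 in each library.

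**Figure D4:**
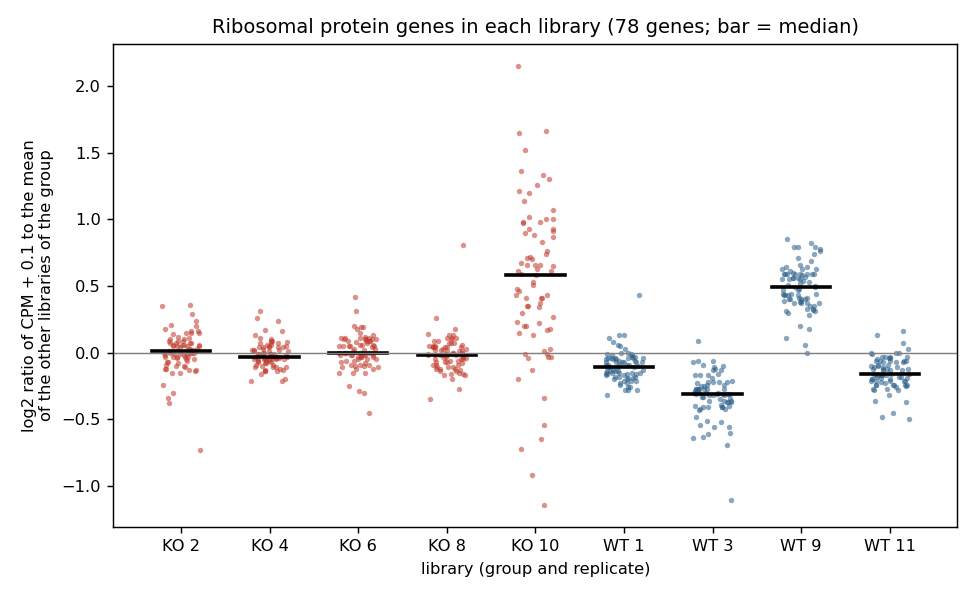
Deviation of each of the 78 genes chosen by symbol, as the log2 ratio to the other libraries of its group, in each library, with the median as a bar. The medians of KO replicate 10 (0.59) and WT replicate 9 (0.49) stand above the others, and the spread is widest in KO replicate 10 (SD 0.59, against 0.17 in WT replicate 9).

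In WT replicate 9 nearly all members were higher. The value was above the mean of the other WT libraries in 77 of the 78 genes, beside 49.5% of all genes. Deviations ran from -0.00 for Rpl5 to 0.85 for Rpl38. Their SD was 0.17, equal to the 0.17 over 5028 genes of at least 50 CPM. Over those 5028 genes the SD was 0.09 to 0.13 in the other libraries apart from KO replicate 10. A difference of 1.25-fold or more upward was found in 69 of the 78 genes, beside 11.4% of all genes, and downward in 0, beside 5.9% of all genes. Differences of 2-fold or more were found in 0 of the 78 genes, beside 0.969% of all genes upward and 0.641% downward. Rpl5, whose protein carries the small RNA of the large subunit together with that of Rpl11, measured 81.3, 79.8, 76 and 67 CPM in WT replicates 1, 3, 9 and 11, and Rpl11 measured 88.7, 89.2, 140 and 93.9 CPM. Replicate 9 was thus the highest WT library for Rpl11 and not for Rpl5, although their proteins act as a pair. The small-subunit gene Rps14 measured 68.2, 52.8, 113 and 74.5 CPM in these libraries.

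In KO replicate 10 the deviations were larger and went both ways. Of the 78 genes, 65 were above the mean of the other KO libraries and 13 below, beside 49.3% of all genes above. Their deviations ran from -1.14 to 2.15, with an SD of 0.59 beside 0.41 over 5028 genes of at least 50 CPM. Upward by 1.25-fold or more were 53 of the 78, beside 22.5% of all genes, and downward by that much 6, beside 23.2%. Upward by 2-fold or more were 13 of the 78, beside 2.03% of all genes, and downward by that much was 1, beside 2.51% of all genes.

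The largest upward deviation was that of Rpl3, the protein next to the peptidyl transferase centre of the large subunit, which measured 85.4, 80.4, 80.5, 84.3 and 368 CPM in KO replicates 2, 4, 6, 8 and 10 and 79.2, 77.5, 99.4 and 83.5 CPM in WT replicates 1, 3, 9 and 11. Replicate 10 alone stood apart, by 2.15 on the log2 scale, and without it the difference between KO and WT was -0.03 (SE 0.07, limma adjusted p = 0.928). Rps27a, made as a fusion with ubiquitin, measured 98.4, 92.3, 96.4, 105 and 308 CPM in KO and 93.3, 92.3, 148 and 94.1 CPM in WT, with replicates 10 and 9 the highest of their groups. Rpsa, a small-subunit protein also known as the laminin receptor, measured 422, 377, 452, 427 and 1007 CPM in KO and 411, 378, 550 and 438 CPM in WT. Of the stalk genes Rplp2 reached 228 CPM in replicate 10 (67.5 to 78.7 in the other KO libraries), while Rplp0 reached 138 (93.2 to 102) and Rplp1 161 (109 to 133). The deviations of Rplp0, Rplp1 and Rplp2, whose proteins form the stalk together, were 0.51, 0.41 and 1.66. Also among the 8 largest were Rpl37a (182 CPM in replicate 10), Rpl11 (250 CPM), Rpl36 (97.2 CPM) and Rpl26 (234 CPM), all of the large subunit. The last of the 8 was Rpsa at 1.26 and the next gene was Rpl7 at 1.21.

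Downward in KO replicate 10 were large-subunit genes Rpl34, Rpl27, Rpl29, Rpl15 and Rpl39 and small-subunit genes Rps27, Rps29 and Rps13. Rpl34 measured 25.9, 25, 32.7, 28.4 and 12.7 CPM in KO replicates 2, 4, 6, 8 and 10 and 30.7, 24.5, 42.3 and 32.5 CPM in WT replicates 1, 3, 9 and 11. Rpl27 measured 46.6, 52.3, 52.5, 48.2 and 26.3 CPM in KO and 60.9, 50.3, 72.8 and 52.9 CPM in WT. For both genes replicate 10 was the lowest library while WT replicate 9 was the highest, and neither passed the threshold between the groups (limma adjusted p = 0.825 and 0.766). Rps27 measured 45.1 CPM in replicate 10 where the other KO libraries held 69.3 to 78.6 CPM, and Rpl15 reached 99.3 CPM where the others held 139 to 148 CPM. Rpl29, Rpl39, Rps29 and Rps13 deviated by -0.65, -0.34, -0.20 and -0.13, and the next gene was Rps26 at -0.04.

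Across the 78 genes the deviations of the 2 libraries had a Pearson correlation of 0.14 and a Spearman correlation of 0.18, beside 0.29 and 0.35 over 4964 other genes of at least 50 CPM. The points share the library and its depth, so these are descriptions. Deviations in replicate 10 had Pearson correlations of 0.28 with coding length, -0.23 with the number of annotated copies and -0.01 with the GC content of the coding sequence. In replicate 9 they were -0.15, -0.06 and 0.37, with 0.39 for the mean WT level per kb. Rpl3, for example, deviated by 2.15 in replicate 10 and by 0.31 in replicate 9.

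**Figure D5:**
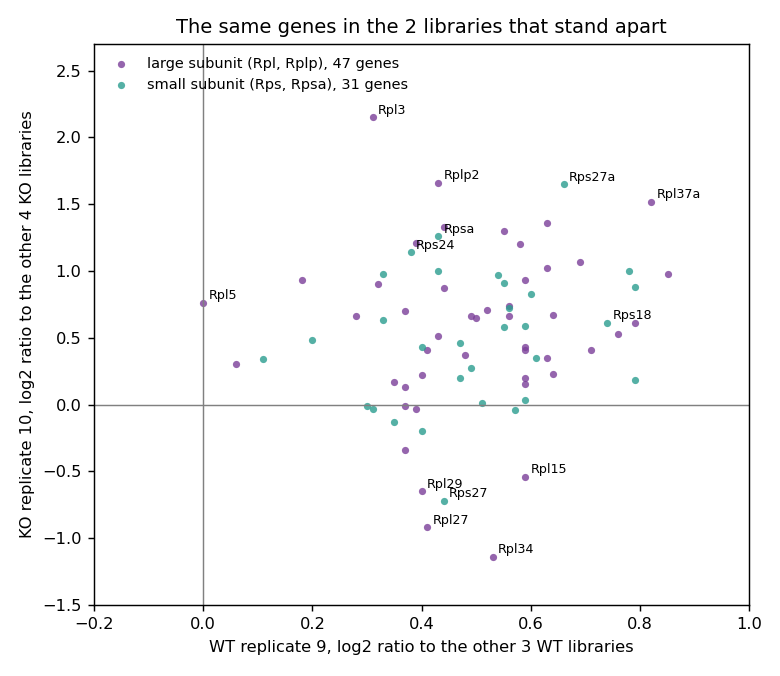
Deviation in KO replicate 10 (y axis) against that in WT replicate 9 (x axis) for 78 genes, as log2 ratios to the other libraries of the group, coloured by subunit. Nearly all genes lie right of zero on the x axis, whereas on the y axis they run from -1.14 (Rpl34) to 2.15 (Rpl3).

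RefSeq promoters on GRCm38.p6 were searched on the gene's strand for a C followed by at least 5 pyrimidines (C or T) starting within 10 bases of the annotated start. Of the 58 members with a promoter entry, 32 (55.2%) held such a tract, beside 23.8% of 11253 genes of the table and 21.9% of all 27025 genes with an entry. A gene counted if any of its annotated starts held a tract. With the first start alone the shares were 50%, 20% and 19.2%. Windows of 40 bases around the start, 5′ to 3′, are shown for Rps18, Rplp2 and Rps27, with the tract in capitals. Rps18 was higher in KO, although its sum with the copies was not shown to differ. Rplp2 was high in replicate 10 and Rps27 was low there. The windows lie at chr17:33955646-33955685 (minus strand), chr7:141447631-141447670 (plus strand) and chr3:90213629-90213668 (minus strand).
Rps18: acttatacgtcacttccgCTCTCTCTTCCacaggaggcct
Rplp2: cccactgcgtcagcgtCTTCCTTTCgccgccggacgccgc
Rps27: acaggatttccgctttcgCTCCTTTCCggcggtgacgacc
They were picked among genes that hold a tract. Of the 8 genes with the largest upward deviations in replicate 10, 5 had a promoter entry and 1 of these, Rplp2, held a tract, whereas Rpl37a, Rpl11, Rpl26 and Rpsa did not. Of the 8 with the largest downward deviations, 6 had an entry and 4 held a tract (Rpl34, Rps27, Rpl15 and Rpl39), whereas Rpl27 and Rps13 did not.

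Other genes of translation were taken from lists. Of 5 ribosomal proteins or ribosome-bound proteins outside the symbol rule (Fau, Rack1, Rps3a1, Rpl22l1 and Rpl7l1), 0 passed the limma threshold with all libraries or without KO replicate 10, and all 5 were above the mean of the other libraries of the group in both KO replicate 10 and WT replicate 9. Rps3a1, a small-subunit protein, measured 201, 178, 180, 180 and 421 CPM in KO and 187, 171, 246 and 174 CPM in WT. The large-subunit paralogs Rpl22l1 and Rpl7l1 deviated by 1.01 and 0.36 in replicate 10. At an unadjusted p under 0.05 there were 0 of the 5 in either fit, beside 933 and 1511 of all 14351 genes. Over all genes, 49.3% were above the mean of the other libraries in KO replicate 10 and 49.5% in WT replicate 9.

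Of 18 translation factors and other genes with 5′ pyrimidine tracts, 0 passed in either limma fit (0 and 3 at an unadjusted p under 0.05), with a median log2 difference of -0.01, and 17 were above the mean of the other libraries of the group in KO replicate 10 (median deviation 0.43) and 17 in WT replicate 9 (median 0.21). Eef1a1, the factor that brings aminoacyl-tRNA to the ribosome, measured 1752, 1737, 1736, 1839 and 2716 CPM in KO and 1878, 1701, 2220 and 1802 CPM in WT, so the same libraries were the highest. Of 30 ribosome biogenesis genes 0 passed in either limma fit (2 and 3 unadjusted), and 24 were above that mean in KO replicate 10 (median 0.41) but 17 in WT replicate 9 (median 0.04). Those with the smallest p were Bysl (log2 difference -0.24), Ncl, nucleolin (0.14), and Sbds, which readies the large subunit (0.25), with limma adjusted p of 0.741, 0.759 and 0.807. Of 13 measured genes of mTOR control 0 passed in either limma fit (2 and 3 unadjusted), and their medians were 0.01 in KO replicate 10 and -0.07 in WT replicate 9. Of 78 mitochondrial ribosomal protein genes 0 passed in either limma fit (5 and 6 unadjusted), with 58 above that mean in KO replicate 10 (median 0.25) and 67 above in WT replicate 9 (median 0.22). For all these lists, the unadjusted counts stand beside 933 and 1511 of all 14351 genes. The counts above the mean stand beside 49.3% of all genes in KO replicate 10 and 49.5% in WT replicate 9. The median of the cytosolic members in these libraries, 0.59 and 0.49, was the highest of these lists. The ribosomal proteins outside the symbol rule came close, with medians of 0.55 in KO replicate 10 and 0.47 in WT replicate 9. The smallest unadjusted p of the mitochondrial genes was that of Mrps25, with a log2 difference of -0.24 (limma adjusted p = 0.363).

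Marker genes of other tissues were summed in the same libraries. The 5 of 7 pituitary markers measured summed to 60 CPM in KO replicate 10, above the 24 to 48 CPM of the other KO libraries, and to 52.6 CPM in WT replicate 9, where the WT libraries spanned 36.2 to 63.4 CPM. Gh and Prl had no row among those analysed here, and the 5 measured include Pomc, which is also a hypothalamic marker. The 3 of 5 choroid plexus markers measured summed to 41.6 and 45.7 CPM, where the other KO libraries held 36.8 to 49.7 CPM and the WT libraries 31.9 to 45.7 CPM, and Ttr and Folr1 had no row among those analysed here. Ependymal markers (5 of 5) summed to 37.8 and 40.9 CPM, where the other KO libraries held 30.8 to 37.9 CPM and the WT libraries 32.1 to 40.9 CPM. These WT ranges include WT replicate 9, which was the highest WT library for both the choroid plexus and the ependymal sum. Of the blood markers 1 of 5, Alas2, was measured. It was at 13.4 CPM in KO replicate 10, above the other KO libraries (9.79 to 12 CPM), and at 8.47 CPM in WT replicate 9. The globin genes Hba-a1, Hba-a2, Hbb-bs and Hbb-bt had no row among those analysed here. The hypothalamic markers summed to 941 CPM in KO replicate 10 and 741 CPM in WT replicate 9, where the other KO libraries held 774 to 917 CPM and the WT libraries 708 to 759 CPM. KO replicate 10 was also the deepest library. The part of these differences in the deviations of the ribosomal protein genes was not tested.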

How the data were processed

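Hypothalamic RNA of 5 KO and 4 WT mice was sequenced from TruSeq libraries. According to the study's methods and the submitters' processing notes, the authors trimmed reads with Trimmomatic 0.38, aligned them to GRCm38.p6 with STAR 2.5.1a, estimated gene counts with RSEM 1.3.0, kept genes with at least 1 CPM in at least 5 samples and normalized by TMM in edgeR. Reads matching several genes are apportioned among those genes by RSEM. The signal deposited by the authors is TMM-normalized CPM, whose column sums differ slightly between libraries. The deposited table of the authors' comparison holds fold changes and p-values, which were not used, and gave only symbols. There was 1 column of values that matched no sample and was not used.

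Values were analysed as log2(CPM + 0.1) with limma 3.58.1 in R 4.3.3 (lmFit, eBayes with a trend, condition only), p-values being adjusted by Benjamini-Hochberg across all 14351 genes and called at 0.05. The trend replaced limma-voom because the values are normalized CPM, not counts. Exact permutation tests were two-sided (scipy 1.17.1). The smallest p they allow is 0.0159 for 5 against 4 libraries and 0.0286 for 4 against 4. Depth was estimated from the steps between low CPM values, of which 81.3% to 86.6% up to 2.5 CPM lay within 0.03 reads of a whole read. Copies were matches of coding sequences to annotated GENCODE transcripts (blastn 2.17.0, at least 90% identity over at least 80%), since no genome sequence was used here. Level per kb divided CPM by the median length of the coding transcripts.

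The genes named were Clic1, Rps18 and its copies, every member past the threshold with or without KO replicate 10, the 8 members with the largest deviations of replicate 10 in each direction, the 5 highest and 5 lowest per kb, the stalk genes, Rpsa, measured paralogs, and 3 genes of each other list by smallest p, except that a few results are not reported here. The members and lists were chosen with earlier results of these data known. Alternatives were other pseudocounts, a filter at a mean of 5 CPM, other scalings, no trend, array weights, replicate 10 as WT and leaving out each replicate. Leaving out KO replicate 10 and WT replicate 9 together was chosen after seeing the data.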

Additional observations from a re-analysis of the deposited data

Results flagged for a closer look

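In 22 of 64 groups of libraries tested over the named genes, 1 library lay farther from the rest of its group than Dixon's 95% limit allows. Chance gives about 1 in 20 groups when genes are not chosen by their values, but 16 of these genes were named for the size of their deviation in KO replicate 10, so the number of groups in which it stands out restates that choice and has no chance level here. In 15 of them KO replicate 10 was the highest KO library. It measured 63 CPM for Rps18 (38.6 to 43.3 in the others), 369 for Rps24 (157 to 180), 368 for Rpl3 (80.4 to 85.4), 228 for Rplp2 (67.5 to 78.7) and 308 for Rps27a (92.3 to 105). It also measured 182 CPM for Rpl37a (58.7 to 68.8), 250 for Rpl11 (95 to 101), 97.2 for Rpl36 (37.7 to 39.6), 234 for Rpl26 (83.2 to 104) and 1007 for Rpsa (377 to 452). The remaining 5 were Rpl23a at 187 CPM (142 to 148), Rps20 at 108 (52.3 to 57.4), Rplp0 at 138 (93.2 to 102), Rpl22l1 at 29.2 (13.9 to 15.2) and Rpl36al at 53.8 (26.4 to 30.7).

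In 3 groups KO replicate 10 was the lowest KO library, at 26.3 CPM for Rpl27 (46.6 to 52.5 in the others), 45.1 for Rps27 (69.3 to 78.6) and 99.3 for Rpl15 (139 to 148). In 3 groups WT replicate 9 was the highest WT library, at 148 CPM for Rps27a (92.3 to 94.1), 140 for Rpl11 (88.7 to 93.9) and 143 for Rpl26 (96.3 to 101). In the last group KO replicate 2 was the highest KO library for Gm11361, at 0.768 CPM against 0 to 0.0529 in the others. The labels of replicate 10 conflict, and it is the deepest library. The part of either in these values was not tested.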

How the results depend on the processing

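Of 574 comparisons of the values of 32 genes with an alternative, 509 kept their direction and side of the threshold, 55 reversed, 7 kept their direction but no longer passed and 3 newly passed. The 7 were Clic1 (4), Rps18, Gm10260 and Gm11361, and the 3 were Rps24, which passed without KO replicate 10, with array weights and without KO replicate 10 and WT replicate 9. Genes that reversed passed the threshold neither in the fit of all libraries nor in the alternative that reversed them.

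With replicate 10 as WT, as its title says, the log2 differences were -1.51 for Clic1, 1.43 for Rps18, -6.14 for Gm10260 and -4.80 for Gm11361, and none passed. The count of genes past the threshold was then 5, and 0 members (41 and 3 of 80 with all libraries). Reversed values with replicate 10 as WT were -0.46 for Rpl3, -0.32 for Rplp2, -0.41 for Rps27a, -0.32 for Rpl37a, -0.31 for Rpl11, -0.34 for Rpl36, -0.41 for Rpl26, -0.31 for Rpsa, 0.07 for Rpl34, 0.16 for Rps27, 0.02 for Rpl15, 0.06 for Rps29, 0.00 for Rps13, -0.09 for Rpl23a, -0.12 for Rplp1, -0.22 for Rps20, -0.18 for Rpl22l1, -0.21 for Rpl36al and -0.03 for Rpl7l1.

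Array weights gave 135 genes and 5 members past the threshold, and reversed Rpl36 (-0.02), Rpl26 (-0.09), Rpsa (-0.01), Rps27 (0.04), Rps29 (0.05), Rps13 (0.01) and Rplp1 (-0.02). Without KO replicate 10 and WT replicate 9 together, 137 genes and 5 members passed, and Rpl26 (-0.05), Rps27 (0.13), Rpl15 (0.03), Rpl39 (0.01), Rps29 (0.13), Rps13 (0.06) and Rps15 (0.02) reversed. With the filter at a mean of 5 CPM 27 genes passed, fewer genes being tested.

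Leaving out 1 library each time, 18 to 87 genes passed, and the log2 difference was -1.94 to -1.62 for Clic1, with adjusted p of 0.0893, 0.0826 and 0.0702 without WT replicate 1, 3 or 9. Genes that reversed without KO replicate 10, with their ranges over all libraries left out, were Rpl3 (-0.03 to 0.52), Rps27a (-0.10 to 0.40), Rpl37a (-0.02 to 0.49), Rpl11 (-0.05 to 0.38), Rpl36 (-0.09 to 0.29), Rpl26 (-0.19 to 0.21), Rpsa (-0.07 to 0.29), Rps27 (-0.23 to 0.02), Rps20 (-0.03 to 0.24), Rpl36al (-0.03 to 0.22), Rpl23a (-0.02 to 0.18), Rplp1 (-0.08 to 0.21) and Rps29 (-0.09 to 0.09). Without WT replicate 9, Rps13 (-0.12 to 0.04), Rps15 (-0.16 to 0.09), Rps21 (-0.29 to 0.04) and Rplp0 (-0.16 to 0.05) reversed. The cause was not tested. No paired analysis was possible because KO and WT share no replicate number. Low genes such as Gm11361 in KO rest on a few estimated reads.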
